A study of Arabidopsis thaliana with 4 samples.

Results

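The stretch of Arabidopsis thaliana chromosome 2 that carries a copy of mitochondrial DNA was described in 4 chromatin isolation by RNA purification (ChIRP-seq) libraries. Its peaks were chosen by position from the deposited lists of called peaks, taking those on chromosome 2 of the TAIR10 build with an end at or above 3240000 and a start at or below 3510000. This gave 591 peaks of 107288 on the 5 nuclear chromosomes. They numbered 171 in ODD 1, 155 in ODD 2, 182 in EVEN 1 and 83 in LACZ 1. Interest in the stretch came from earlier results of these lists, in which several of the strongest regions lay there, so peak counts and folds are given as a description.

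Plant mitochondria keep a genome of their own, which encodes some subunits of the respiratory chain, of ATP synthase and of the mitochondrial ribosome, together with ribosomal and transfer RNAs. Pieces of organelle DNA enter the nucleus and stay there as nuclear mitochondrial DNA segments. In Arabidopsis Col-0 a large insertion of mitochondrial DNA sits beside the centromere of chromosome 2 and closely matches the organelle sequence. The identity of the stretch is background knowledge, and no sequence was compared here. Short reads from such a copy and from the organelle can be hard to tell apart, and how such reads were placed is not given in the sources used here.

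ChIRP-seq fishes for DNA that is crosslinked near a chosen RNA, using biotinylated probes complementary to that RNA. The RNA was APOLO, an auxin-responsive long noncoding RNA of Arabidopsis that acts on the neighbouring PID gene and on other loci. All libraries came from Col-0 plants in which a transgene in pB7WG2 drives the whole APOLO region from the 35S promoter. The plants grew on solid half-strength MS medium in long days. The probes against APOLO form 2 sets, ODD and EVEN, with 2 libraries (ODD 1 and ODD 2) and 1 library (EVEN 1), and LACZ 1 is the library of control probes. All groups thus share the transgene, and the labels do not state tissue, plant age or which line was used.

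With 1 library for EVEN and for LACZ, no difference between probe sets could be tested, and all values describe these libraries. Pileup is the number of overlapping fragments at the summit of a peak, and fold is that pileup over the local background of the same library, both the authors' values. The local background was recovered from the pair as (pileup + 1) / fold − 1. Its lowest value in a list was 1.11 fragments for ODD 1, 6.55 for ODD 2, 2.81 for EVEN 1 and 6.23 for LACZ 1. These values differed, so pileups were not compared between libraries as amounts. Depth and fragment length may set them, which was not tested. The shortest peak was 47, 94, 54 and 200 bp wide in the same order.

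Among the stretches of its length compared here, the copy held the most peaks in 3 of the 4 libraries. Each list was cut into 436 stretches of this length along the nuclear chromosomes, and the copy ranked 1 by number of peaks in ODD 1, EVEN 1 and LACZ 1. On chromosome 2 the cuts were placed so that the copy was exactly a stretch of its own. Other dense areas were cut wherever the grid fell, which favours the copy in these ranks. A stretch held a median of 36 peaks in ODD 1, 46 in EVEN 1 and 28 in LACZ 1. In ODD 2, where the median stretch held 134, the copy ranked 26. The copy thus held 1.06% of the nuclear peaks of ODD 1, 0.889% of EVEN 1 and 0.662% of LACZ 1, and 0.267% of the much longer ODD 2 list. Control probes gave fewer peaks there than any APOLO-probe library, in the shortest of the 4 lists.

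Peak density in the copy was 6.33 per 10 kb in ODD 1, 5.74 in ODD 2, 6.74 in EVEN 1 and 3.07 in LACZ 1. In the flanks, the stretches of equal length on either side, it was 1.65, 4.76, 2.19 and 1.46 in that order. Peaks covered 5.32% of the copy in ODD 1 and 6.88% in EVEN 1, against 1.70% and 2.53% of the flanks. LACZ 1 covered 10.9% against 5.17%, and ODD 2 covered 9.67% against 10.3%. Density was therefore higher in the copy in every list, whereas ODD 2 covered slightly less of the copy than of the flanks.

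**Figure D1:**
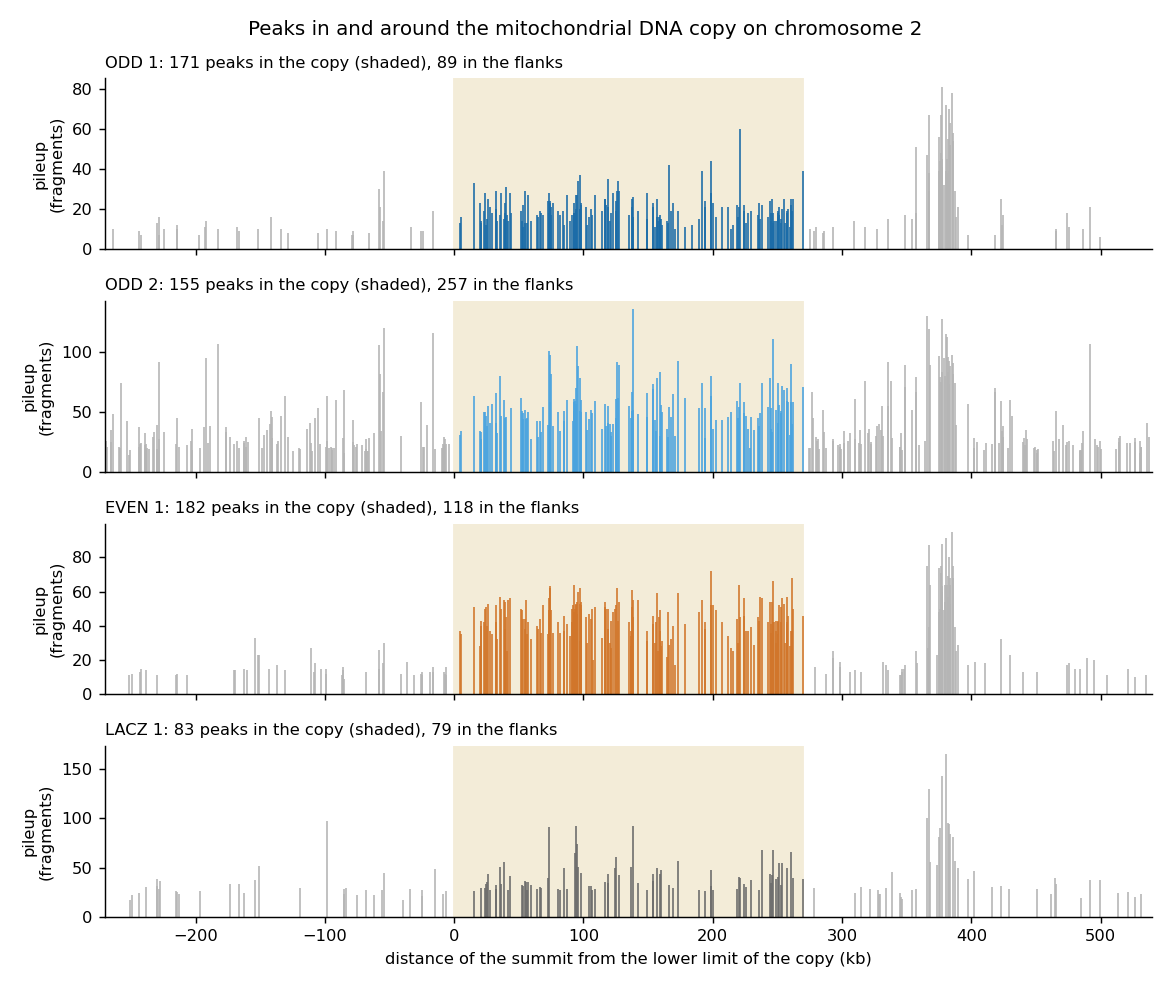
Pileup at the summit (fragments, vertical lines) against distance from the lower limit of the copy (kb) in ODD 1, ODD 2, EVEN 1 and LACZ 1, with the copy shaded and flanking peaks in grey. The copy held 171, 155, 182 and 83 peaks in that order, and the dense group of high peaks in the upper flank appeared in all 4 lists.

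The flanks are not uniform. Between 360 and 395 kb above the lower limit lay a dense group of high peaks in every library, 29 in ODD 1, 23 in ODD 2, 34 in EVEN 1 and 14 in LACZ 1. Their median pileups were 45, 89, 63.5 and 87, over median local backgrounds of 7.27, 25.3, 12.2 and 27.5 fragments. Some flank values below are also given without this group, a separation made after the data were seen.

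Peaks in the copy had higher median pileups than the other nuclear peaks of their own list. The median pileup was 19 fragments in ODD 1 against 11 in all other nuclear peaks, a ratio of 1.73. In ODD 2 the medians were 51 and 30, a ratio of 1.70, and in LACZ 1 they were 35 and 24, a ratio of 1.46. EVEN 1 had the widest gap, with 44 against 14, a ratio of 3.14. The ratio in the control library was thus the lowest of the 4.

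Median fold in the copy was 8.17 in ODD 1, 6.23 in ODD 2, 9.72 in EVEN 1 and 4.42 in LACZ 1, against 4.91, 3.44, 3.41 and 2.93 in other nuclear peaks. Among stretches of this length with at least 10 peaks, the copy ranked 1 by median fold in all 4 lists. By median pileup it ranked 6, 1, 1 and 4 in the order ODD 1, ODD 2, EVEN 1 and LACZ 1. For fold, the next stretch reached 7.30 in ODD 1, 4.48 in ODD 2, 5.27 in EVEN 1 and 3.59 in LACZ 1. Of the 100 nuclear peaks of highest fold, 65 lay in the copy in EVEN 1, 7 in ODD 1, 2 in LACZ 1 and 0 in ODD 2. The top 10% of each list by fold took in 98.4% of the EVEN 1 peaks of the copy, 57.8% of those of LACZ 1, 43.9% of ODD 1 and 19.4% of ODD 2.

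Nearly all peaks of the copy were far past the q threshold. With −log10 q of at least 5, the copy kept 169 of 171 peaks in ODD 1, where 50.8% of all nuclear peaks were kept. ODD 2 kept 154 of 155 against 67.8% of its list, and LACZ 1 kept 82 of 83 against 35.5%. EVEN 1 kept 182 of 182, although its list fell to 17.3%.

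A larger share of peaks had the lowest local background of the library in the copy than in other nuclear peaks or the flanks. Peaks within 1% of that value made up 50.9% of the copy in ODD 1, 63.2% in ODD 2, 47.8% in EVEN 1 and 62.7% in LACZ 1. The shares were 20.6%, 29.0%, 31.8% and 29.5% in other nuclear peaks, and 6.74%, 23.7%, 26.3% and 6.33% in the flanks. Without the dense group the flank shares were 10%, 26.1%, 36.9% and 7.69%. The highest local background in the copy was 2.68 times the lowest in ODD 1, 2.26 times in ODD 2, 2.73 times in EVEN 1 and 2.84 times in LACZ 1. Elsewhere in the nucleus, over many more peaks, it reached 13.7, 8.52, 8.82 and 11.3 times. The upper quartile was 1.60 times the lowest in the copy against 1.45 elsewhere in ODD 1, 1.23 against 1.44 in ODD 2, 1.74 against 1.33 in EVEN 1 and 1.29 against 1.35 in LACZ 1. The medians were 1 against 1.24, 1 against 1.19, 1.10 against 1.13 and 1 against 1.15 in the same order. The upper quartile was thus higher in the copy in ODD 1 and EVEN 1 and lower in ODD 2 and LACZ 1.

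Widths were short and even in the APOLO-probe lists. The median was 66 bp in ODD 1, with the middle 50% between 57 and 79.5 bp, against a median of 104 bp and a range of 65 to 163 bp in other nuclear peaks. EVEN 1 had a median of 80 bp (73 to 90) against 92 bp (67 to 138), and ODD 2 had 138 bp (120 to 164) against 181 bp (129 to 271). LACZ 1 went the other way, with a median of 328 bp (212 to 380) against 269 bp (223 to 344). The shortest width that each list contains accounted for 10 of the peaks in ODD 1, 4 in ODD 2, 1 in EVEN 1 and 11 in LACZ 1.

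**Figure D2:**
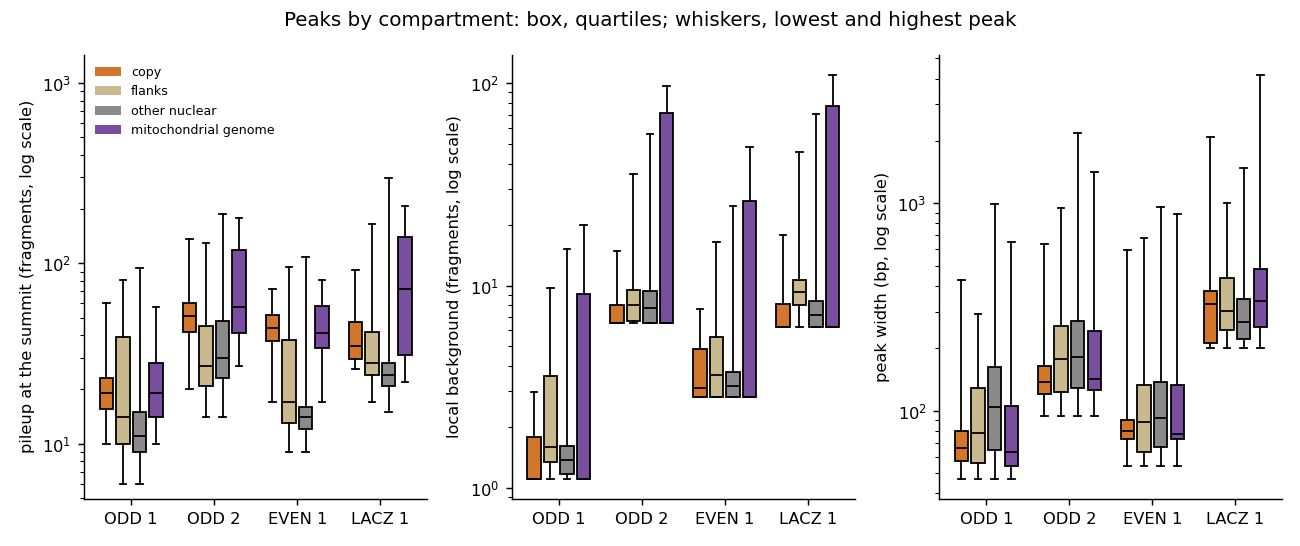
Pileup (fragments), local background (fragments) and peak width (bp), all on log axes, in the copy, its flanks, the other nuclear peaks and the mitochondrial genome for each library; boxes show quartiles and whiskers the lowest and highest peak. In the copy, pileup medians were above those of other nuclear peaks in all 4 lists while background medians were at or near the lowest value of the library.

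Most places with a peak in 1 library had a peak in another. Of the ODD 1 peaks in the copy, 169 of 171 (98.8%, exact 95% interval 95.8 to 99.9) overlapped an EVEN 1 peak by at least 1 bp, where 24.0% of all nuclear ODD 1 peaks did. For LACZ 1 the share was 109 of 171 (63.7%, 56.1 to 70.9) against 13.4%. ODD 2 covered 161 of 171 (94.2%, 89.5 to 97.2), which was close to the 94.8% of the whole list. Intervals cover counting error only.

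From the control side the agreement was nearly complete. All 83 LACZ 1 peaks of the copy (100%, 95.7 to 100) overlapped an EVEN 1 peak, where 26.6% of the LACZ 1 list did. For ODD 1 it was 82 of 83 (98.8%, 93.5 to 100) against 15.6%, and for ODD 2 also 82 of 83 against 56.0%. LACZ 1 peaks were also the widest of the 4 lists, and a wide peak overlaps others more readily. No LACZ 1 peak of the copy was without a peak in another list.

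EVEN 1 peaks were met by ODD 1 in 163 of 182 cases (89.6%, 84.2 to 93.6) against 19.1% of the list, by ODD 2 in 166 (91.2%, 86.1 to 94.9) against 59.5%, and by LACZ 1 in 112 (61.5%, 54.1 to 68.6) against 18.6%. ODD 2 peaks were met by ODD 1 in 145 of 155 cases (93.5%, 88.5 to 96.9) against 24.7%, and by EVEN 1 in 153 (98.7%, 95.4 to 99.8) against 19.1%. LACZ 1 met 94 of them (60.6%, 52.5 to 68.4) against 13.0%. The share in the copy was above that over all nuclear peaks in 11 of the 12 ordered pairs of lists. ODD 1 in ODD 2 was the exception. Peaks are not replicates and the pairs are reciprocal, so the intervals are no test of this difference. The stretch was chosen with its strong peaks known, and shares were not matched for peak strength.

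Shares in the flanks were below those of the copy in all 12 pairs of lists. For ODD 1 peaks in ODD 2 they were close, 92.1% against 94.2%, inside the interval of the copy. EVEN 1 met 49.4% of the ODD 1 peaks in the flanks, and LACZ 1 met 40.4%. Without the dense group in the upper flank these shares were 25% and 20% of 60 peaks, near those of the whole list. EVEN 1 peaks in the flanks were met by LACZ 1 in 43.2% of cases, and in 32.1% without the dense group.

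**Figure D3:**
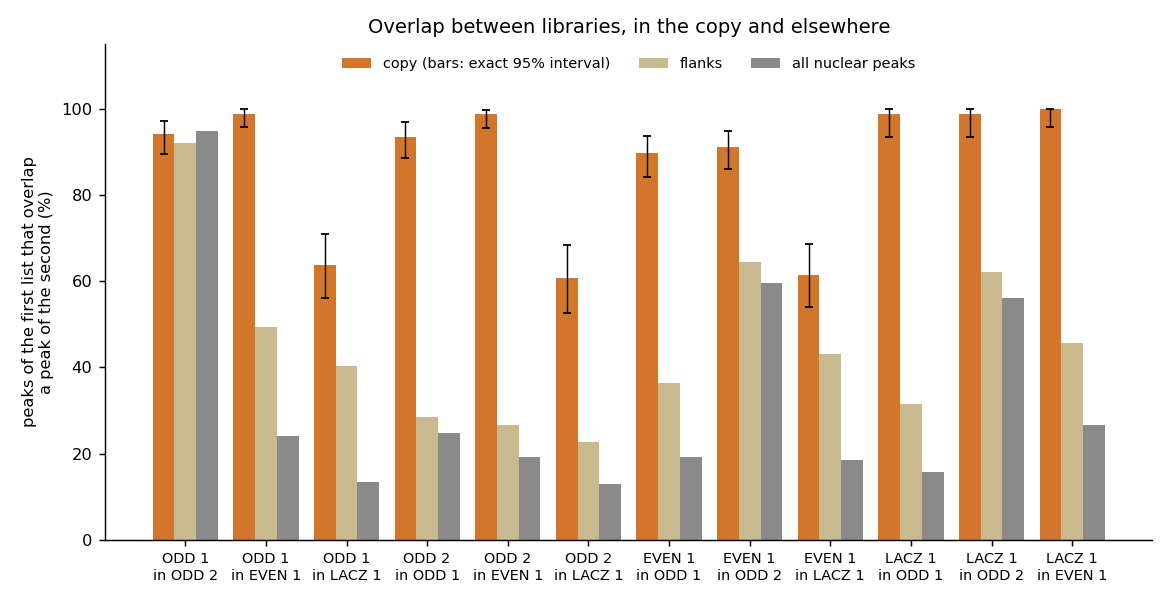
Share of the peaks of a first list that overlap a peak of a second list (%), for the copy (with exact 95% binomial intervals), the flanks and all nuclear peaks, in the 12 ordered pairs of libraries. In the copy 98.8% of ODD 1 peaks were in EVEN 1 and 63.7% in the control list LACZ 1, against 24.0% and 13.4% of all nuclear ODD 1 peaks.

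Merging the peaks of all lists wherever they overlapped gave 155 sites, which covered 14.5% of the copy. Of these, 81 sites (52.3%) held a peak in all 4 libraries and 52 (33.5%) in both ODD libraries and EVEN 1 but not LACZ 1. Another 2 sites had a LACZ 1 peak and lacked 1 of the ODD libraries. Sites of a single library numbered 5. EVEN 1 alone had 3 of them, in AT2G07633, AT2G07695 and AT2G07806, with pileups of 50, 20 and 37, and ODD 1 and ODD 2 had 1 each. LACZ 1 was missing at 72 sites and alone at 0. Sites were merged in the copy only, so these counts have no matching shares over all nuclear peaks or the flanks.

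Summits fell at nearly the same base. Between overlapping ODD 1 and EVEN 1 peaks of the copy the median distance of summits was 2 bp, with 84.0% of 169 pairs within 10 bp. For ODD 2 and EVEN 1 it was also 2 bp (82.4% of 153), and for ODD 1 and ODD 2 it was 3 bp (72.7% of 161). Against the wider LACZ 1 peaks the medians were 20 bp for ODD 1, 9.5 bp for ODD 2 and 6 bp for EVEN 1.

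Overlapping peaks elsewhere in the nucleus had summits farther apart. The median distance was 37 bp for ODD 1 with EVEN 1, with 20.3% of pairs within 10 bp. It was 37 bp for ODD 1 with ODD 2 (16.7%) and 91 bp for EVEN 1 with LACZ 1 (8.79%). The flanks, with the dense group included, came nearer to the copy for ODD 1 with EVEN 1. There the median was 5 bp, with 70.5% of 44 pairs within 10 bp. For ODD 1 with ODD 2 the flank median was 35.5 bp (25.6%), and for EVEN 1 with LACZ 1 it was 107 bp (23.5%). Short width bounds the distance between summits, so the comparison was also made with ODD 1 peaks of at most 79.5 bp, the upper quartile of the copy. In these the median was 26 bp with EVEN 1 (31.1% within 10 bp) and 37 bp with ODD 2 (17.8%). The EVEN 1 and ODD 2 peaks were not limited in width, so an effect of width was removed only in part.

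Of the ODD 1 peaks in the copy, 60 (35.1%, 28.0 to 42.7) overlapped EVEN 1 and not LACZ 1, the definition of a candidate APOLO region, where 17.3% of all nuclear ODD 1 peaks met it. A larger number, 109 (63.7%), overlapped both EVEN 1 and LACZ 1, against 6.74% of the list. Among ODD 1 peaks that overlapped EVEN 1, candidates were thus a minority in the copy, 60 of 169. Over all nuclear peaks they were the majority, 2786 of 3873. These 109 peaks were 10% of all ODD 1 peaks shared with both, while the 60 candidates were 2.15% of all candidates. Only 2 ODD 1 peaks of the copy (1.17%) lacked a counterpart in both EVEN 1 and LACZ 1, the class that made up 69.3% of the ODD 1 list. Among candidates, 53 of 60 had an ODD 2 peak, and among peaks shared with both lists 107 of 109 had one. Over all nuclear ODD 1 peaks 94.8% had an ODD 2 peak, and of those shared with both lists 1068 of 1087 did. The same share over all nuclear candidates was not computed.

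Candidates of the copy were somewhat lower and narrower than the peaks shared with the control. Their median ODD 1 pileup was 17 against 21, the median fold 7.57 against 8.98, and the median width 58.5 against 73 bp. The same held at sites with exactly 1 peak in each APOLO-probe list. At the 60 such sites with a LACZ 1 peak the ODD 1 pileup had a median of 21.5 (12 to 60), that of ODD 2 53.5 (27 to 111) and that of EVEN 1 46 (29 to 72). At the 52 without one the medians were 17.5 (10 to 39), 45.5 (27 to 78) and 41.5 (17 to 62). Both kinds of site overlapped over most of their range, and no LACZ 1 peak of the copy had a pileup under 26.

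By ODD 1 pileup and fold, the highest candidate lay in AT2G07648, a gene listed as protein-coding. Its ODD 1 peak at 3431521 to 3431601 had a pileup of 39 and a fold of 18.9, the EVEN 1 peak at 3431518 to 3431605 a pileup of 55 and a fold of 14.7, and the ODD 2 peak at 3431485 to 3431630 a pileup of 74 and a fold of 9.94. The 3 summits lay at 3431562, 3431563 and 3431562, in the order ODD 1, ODD 2 and EVEN 1. The nearest LACZ 1 peak was 2289 bp away. AT2G07667 held the next candidate by ODD 1 fold, at 3366537 to 3366611, with pileups of 34 in ODD 1, 62 in ODD 2 and 43 in EVEN 1. Here the nearest LACZ 1 peak was 600 bp away.

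The third by ODD 1 fold lay in the transcribed pseudogene AT2G07677, at 3280181 to 3280251, with pileups of 31 in ODD 1, 46 in ODD 2 and 45 in EVEN 1. Across the 60 candidates the nearest LACZ 1 peak was at a median distance of 993 bp, from 33 to 10138 bp. Candidate summits lay in a protein-coding gene in 21 cases and in no gene in 19. Other genes with a candidate among the 10 of highest ODD 1 fold were AT2G07698, the pseudogene AT2G07693, AT2G07725, AT2G07727 and the overlapping transcribed pseudogenes AT2G07811 and AT2G07808, with ODD 1 folds of 10.4 to 10.8. All of these 10 had an ODD 2 peak.

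The highest ODD 1 peak of the copy lay in AT2G07656, listed as protein-coding, and the control library had a peak at the same base. At this site the pileup was 60 in ODD 1, 74 in ODD 2, 45 in EVEN 1 and 39 in LACZ 1, with summits at 3461086, 3461089, 3461088 and 3461087. The ODD 1 peak, at 3461044 to 3461128 with a fold of 28.8, ranked 3 by fold in the nuclear list of ODD 1. A second site of the same gene, at 3460257 to 3460547, had pileups of 21, 54, 64 and 40 in the order ODD 1, ODD 2, EVEN 1 and LACZ 1. The order of the 2 sites within the gene was thus reversed between ODD 1 and EVEN 1.

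Within 1 kb of AT2G07722 lay the highest EVEN 1 peak of the copy, at 3438637 to 3438723, with a pileup of 72 and a fold of 19.2 that ranked 5 in the EVEN 1 list. The pileup there was 44 in ODD 1, 80 in ODD 2 and 47 in LACZ 1. All 4 summits lay at 3438679 or 3438680. At the upper end, in the lncRNA gene AT2G05395, pileups were 39, 71, 46 and 38 in the order ODD 1, ODD 2, EVEN 1 and LACZ 1, with summits at 3509707 or 3509708. At the first AT2G07656 site and these other 2 places the LACZ 1 summit lay within 3 bp of those of the APOLO-probe libraries. At the second AT2G07656 site it lay at 3460446, apart from those of ODD 1, ODD 2 and EVEN 1 at 3460352, 3460354 and 3460351.

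The highest ODD 2 peak of the copy lay in AT2G07638, where LACZ 1 also reached its highest pileup. The ODD 2 peak at 3377951 to 3378457 had a pileup of 136 and the LACZ 1 peak at 3377557 to 3378545 one of 92. ODD 1 and EVEN 1 reached 26 and 55 there, with peaks at 3377973 to 3378400 and 3377972 to 3378409. LACZ 1 had the same pileup of 92 at a site from 3334090 to 3334712 in the noncoding RNA gene AT2G05195, where ODD 1 had 27, ODD 2 had 70 and EVEN 1 had 53.

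The widest site spanned 3313055 to 3315165, at AT2G07629 and the noncoding RNA gene AT2G00460. LACZ 1 had a single peak of 2097 bp there with a pileup of 91, which ranked 1 by width in its nuclear list. Inside it ODD 1 had 7 separate peaks, ODD 2 had 4 and EVEN 1 had 6, with highest pileups of 28, 101 and 63. Altogether 18 sites had a LACZ 1 peak and more than 1 ODD 1 peak, so a count of peaks understates how much of the copy LACZ 1 covered.

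Further sites with a peak in all 4 lists and among the highest of at least 1 lay in AT2G07715, AT2G07667, AT2G07806, AT2G00510 and the overlapping pair AT2G07787 and AT2G07658. At AT2G07715, pileups were 19 in ODD 1, 93 in ODD 2, 59 in EVEN 1 and 57 in LACZ 1. The noncoding RNA gene AT2G00510 had 25, 90, 68 and 66 in that order. At AT2G07787 and AT2G07658 they were 22, 74, 56 and 68, and the LACZ 1 fold of 9.54 was the highest of that list in the copy. The copy had median pileups of 19, 51, 44 and 35 in the same order, so ODD 1 was at or above its median at these 3 places and the other libraries were above theirs.

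How far pileups followed each other differed between pairs of libraries. Spearman's rho over overlapping peaks was 0.40 between ODD 1 and ODD 2 (161 pairs), 0.40 between ODD 1 and EVEN 1 (169) and 0.55 between ODD 2 and EVEN 1 (153). With LACZ 1 it was 0.04 for ODD 1 (109 pairs), 0.41 for EVEN 1 (112) and 0.59 for ODD 2 (94). Pearson's r in the copy was 0.35, 0.34 and 0.58 for the first 3 pairs and −0.01, 0.37 and 0.63 for the others. In other nuclear peaks rho was 0.65, 0.29 and 0.27 for the first 3 pairs and 0.31, 0.32 and 0.17 for the others. In the copy rho was thus lower for ODD 1 with ODD 2 and with LACZ 1, and higher for the remaining pairs. Pearson's r elsewhere was 0.60, 0.68 and 0.31, then 0.65, 0.74 and 0.28. By r the copy was higher only for ODD 2 with EVEN 1 and with LACZ 1. Over ODD 1 peaks of at most 79.5 bp elsewhere, rho was 0.29 with ODD 2, 0.49 with EVEN 1 and 0.44 with LACZ 1. In the flanks, with the dense group included, rho was 0.67 to 0.90, above the copy in every pair. Sites are neighbours on 1 chromosome and share their library and its depth, so no p-value is given.

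**Figure D4:**
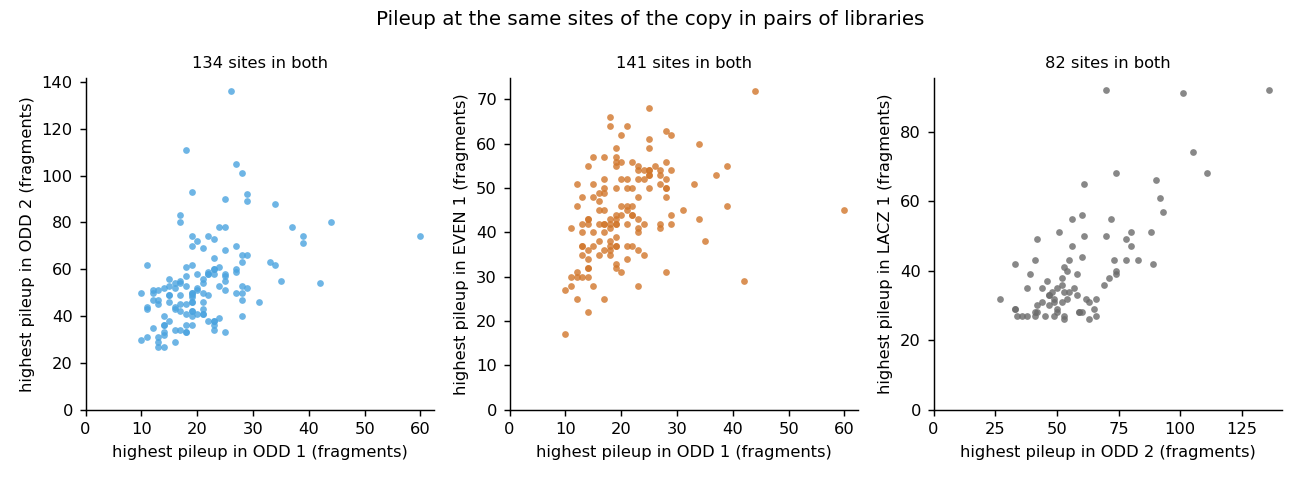
Highest pileup (fragments) at sites of the copy held by both libraries of a pair, ODD 1 with ODD 2, ODD 1 with EVEN 1 and ODD 2 with LACZ 1; each point is 1 site. The ODD 1 maximum of 60, at AT2G07656, and the shared maximum of ODD 2 and LACZ 1, 136 and 92 at AT2G07638, stand at the edges of their clouds.

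Genes of the copy are known mainly by locus numbers. RefSeq's list of genes for TAIR10.1 places 185 genes in the stretch, 94 protein-coding, 44 pseudogenes, 23 tRNA genes and 24 other RNA genes. Of the protein-coding genes 2 have a symbol of their own in that table, ABCI5 (AT2G07771) and ABCI4 (AT2G07681), both named for the ATP-binding cassette family. Genes of the table covered 66.4% of the stretch, and their bodies held 71.9% of the summits in ODD 1, 71.0% in ODD 2, 71.4% in EVEN 1 and 68.7% in LACZ 1. The 4 libraries thus differed little in the share of summits inside genes.

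Protein-coding genes covered 41.7% of the stretch and held 36.8% of ODD 1 summits, 38.1% of ODD 2, 37.9% of EVEN 1 and 42.2% of LACZ 1. Pseudogenes covered 21.4% and held 22.2%, 20.6%, 22.0% and 15.7%. Other RNA genes covered 5.79% and held 13.5%, 12.9%, 12.6% and 10.8%. No summit lay in a tRNA gene, a class that covered 0.656% of the stretch, although sites touched 3 of them, AT2G07754, AT2G07763 and AT2G07765, which the table's synonyms give as serine, cysteine and tyrosine tRNAs.

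In 42 of the 185 genes (22.7%) all 4 libraries had a summit, against 6.98% of all nuclear genes of the table. The 42 were 27 protein-coding genes, 7 pseudogenes and 8 other RNA genes. In 111 genes (60.0%) no library had one, against 26.4% of all nuclear genes. Genes of the copy are shorter, with a median length of 679 bp against 1796 bp, and no adjustment for length was made. ABCI4 belonged to the first kind, with highest pileups of 19 in ODD 1, 62 in ODD 2, 50 in EVEN 1 and 32 in LACZ 1, and ABCI5 to the second. Another 11 protein-coding genes had summits in the 3 APOLO-probe lists and none in LACZ 1, which is 11.7% of 94 against a background of 10.6% of nuclear protein-coding genes. These 11, named after their values were seen, were AT2G07655, AT2G07674, AT2G07698, AT2G07643, AT2G07644, AT2G07714, AT2G07648, AT2G07725, AT2G07727, AT2G07728 and AT2G07659.

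Several peaks often fell in one gene. AT2G07806, listed as protein-coding, held 7 summits in ODD 1, 5 in ODD 2, 9 in EVEN 1 and 4 in LACZ 1. The noncoding RNA gene AT2G05195 held 7, 7, 9 and 3, and it overlaps the lncRNA genes AT2G05205 and AT2G05215. In the pseudogene AT2G07682 there were 6, 6, 6 and 5. AT2G07677 held 5, 3, 5 and 1, so that LACZ 1 was sparse there while AT2G07682 was nearly equal in all lists.

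Along the copy the spacing of sites varied, and it was not compared with random placement. The median gap between neighbouring sites was 799 bp, the shortest 5 bp and the longest 9489 bp, between 3245414 and 3254904. Per 10 kb there were 2 to 13 sites. ODD 2 and EVEN 1 were densest from 90 to 100 kb above the lower limit, with 13 and 19 peaks, where ODD 1 had 14 and LACZ 1 had 5. ODD 1 was densest from 250 to 260 kb, with 15 peaks, where ODD 2 had 11, EVEN 1 had 14 and LACZ 1 had 5. LACZ 1 was densest from 50 to 60 kb, with 7 peaks, where the other 3 lists had 9 each. From 180 to 190 kb ODD 1 had 2 peaks and each other list 1.

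The limits fell in gaps between peaks. Just inside the lower limit ODD 1 had a peak at 3244755 to 3244803 with a pileup of 13 and a local background of 1.11, and the last peak outside, at 3223383 to 3223639, had a pileup of 19 and a background of 1.35. The first LACZ 1 peak inside began at 3254941, later than in the other lists. Just inside the upper limit all 4 lists had the AT2G05395 peak described above. The next peaks outside began at 3515253 in ODD 1, 3514430 in ODD 2, 3518986 in EVEN 1 and 3518302 in LACZ 1, with pileups of 10, 20, 16 and 29.

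In the organelle's own genome the lists held 161 peaks in ODD 1, 203 in ODD 2, 192 in EVEN 1 and 63 in LACZ 1. The median pileups of these peaks were 19, 57, 41 and 72 in that order, against 19, 51, 44 and 35 in the copy. Their local background had a wide range, up to 17.8, 14.7, 17.2 and 17.7 times the lowest value of the library, unlike that of the copy. Peaks within 1% of the lowest background were also common there, at 67.1%, 54.7%, 66.1% and 50.8%. These shares were above those of the copy in ODD 1 and EVEN 1 and below them in ODD 2 and LACZ 1. Median widths of 63, 143, 77 and 340 bp were close to those of the copy. The part that organelle reads had in the peaks of the copy was not tested.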

How the data were processed

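The 4 libraries, 2 ODD, 1 EVEN and 1 LACZ, were sequenced on chromatin DNA, and each has 1 deposited peak list. The submitters' processing notes name MACS2, Bowtie2, Trimmomatic and CASAVA 1.8.2, with TAIR10 as the build. Not given in the sources used here were the calling options, any control library in calling and the placement of reads that match several places. Each deposited peak carries, per the file headers, a pileup signal, a fold enrichment (a ratio within the library), a −log10 p-value and a −log10 q-value. The deposited lists hold no peak with a q-value above 0.05. Read totals were not used here, so depth is not known beyond what the lowest background may reflect.

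Peaks were read with Python 3.11.15 and pandas 2.3.3. Background was (pileup + 1) / fold − 1. Lists were compared by overlap of at least 1 bp, with exact (Clopper-Pearson) 95% intervals from scipy 1.17.1. The overlap and background code was tested on simulated data. Gene names came from the RefSeq table of TAIR10.1, used for names and overlaps only, with no position printed. The match to the peak lists was checked by shifting ODD 2 summits in steps of 500 bp up to 3000 bp, and the share inside protein-coding genes was highest, 73.4%, with no shift. Members, lists and alternatives were chosen with earlier results of these data known. Genes were named if they held a summit in all 4 lists, held or neighboured a candidate region, or lay at 1 of the 5 highest peaks of a list by pileup or fold; the rest are counted. Genes at sites of a single library and those without a LACZ 1 summit were named after their values were seen. Also named were protein-coding genes with a symbol of their own and tRNA genes touched by a site. The planned grouping of genes by respiratory complex was left out, since the gene table gives no such names, and gene biotypes were used. Alternatives changed the q threshold, the overlap, the region limits, the list length, the bins and the ODD library.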

Additional observations from a re-analysis of the deposited data

How the results depend on the processing

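Of 48 shares recomputed with other overlaps, thresholds or list lengths, 40 stayed inside the interval of the reported share and 8 did not. With lists of equal length, keeping the 12546 peaks of best q, ODD 2 kept 80 peaks in the copy. The share of ODD 1 peaks in ODD 2 was then 54.4%, of EVEN 1 peaks in ODD 2 49.5% and of LACZ 1 peaks in ODD 2 67.5%, since fewer ODD 2 peaks were left. ODD 2 peaks were met by ODD 1 and by EVEN 1 in 100% of cases and by LACZ 1 in 77.5%. With 200 bp windows on the summits, LACZ 1 met 55.6% of ODD 1 and 53.3% of EVEN 1 peaks, since wide LACZ 1 peaks were narrowed. All 48 shares were recomputed in the copy only. Whether the copy stays above all nuclear peaks under the same settings was therefore not tested. In bins of 30 kb the densest bin held 9.67 peaks per 10 kb in ODD 1, 8 in ODD 2 and 10.7 in EVEN 1, as wider bins average over more sequence.

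Candidates numbered 60, 59 with ODD 2 in place of ODD 1, and 42 with no LACZ 1 peak within 500 bp. Peak numbers moved by less than 1.5 times with the stricter q threshold or tighter limits, and median backgrounds with the stricter threshold. Leaving the dense group out of the flanks, added after the data were seen, moved 8 of the flank shares, such as EVEN 1 peaks in ODD 1, from 36.4% to 17.9%. No paired analysis was possible because the groups share fewer than 2 replicate numbers and no result comes from a test across replicates. Without read totals, a missing peak in a list may lie under its detection limit.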
